A study of Drosera capensis with 12 samples.

Results

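Traps of the Cape sundew (Drosera capensis) raised a set of 190 transcript features with both stimuli studied, and raised them far more after glutathione than after prey. The features were chosen by their measured change in both comparisons. Each change was the log2 ratio of the mean level in closed traps to that in their mock traps, with a pseudocount of 1 and centred on the median feature above 0 in all 12 libraries. A feature entered when its change was at least 3 after glutathione (GSH) and at least 1 but under 2 after flies. In addition, every closed library had to lie above every mock library in both comparisons, and the mean of the 6 mock libraries had to be under 300 TPM (transcript abundance as a share of its library, scaled to a sum of 1e+06). These limits were met by 190 of the 397048 features of the table. The levels and changes after either stimulus are therefore a description of the choice.

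The Cape sundew is a carnivorous plant whose leaf carries sticky tentacles and folds around prey. The leaf samples formed 4 groups of 3 libraries. In the GSH-closed group, trap closure was induced with 100 mM GSH on the petiole, and the GSH mock had no small-molecule treatment. In the fly-closed group the leaf was fed living fruit flies, and the fly mock was left without a stimulus. Each stimulus had its own mock, so differences between the stimuli cannot be told apart from differences between the experiments. The titles gave these groups; an agent label on the fly-closed samples names GSH, which differs from their titles and codes, and was not used. What liquid a mock received, the age of the plants, how many leaves were pooled and the time of collection are not stated in the labels. Whether the 3 samples of a group are separate plants is not labelled, so p-values reflect only how these samples differ among themselves, possibly for technical reasons.

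Glutathione is a thiol tripeptide that plants use as a redox buffer and to detoxify foreign compounds. In carnivorous plants such as sundews and the Venus flytrap, touch and prey chemicals set off electrical and calcium signals and a rise in jasmonates, the wound hormones. These hormones are known to switch on digestive enzymes and transporters that take up prey nutrients. The table carries assembly IDs without gene names, and no reference pairs them, so the features are described by level, change and relation to each other, and at most 2 are named. Lists of digestive, jasmonate and glutathione genes could not be applied for the same reason.

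Library sums lay between 17708252 and 20453078. These sums are totals of rescaled values, so the number of reads behind a feature is unknown. Between 59804 and 63088 features were above 0 in libraries of the GSH experiment, and between 74756 and 86499 in those of the fly experiment. The ranges did not overlap, and how this bears on comparisons between the experiments was not tested. Over the features tested, Pearson's r between libraries of one group was 0.914 to 0.929 on the log2(TPM + 1) scale; features are not independent replicates. Of all 397048 features, 45503 reached the minimum level for testing. All 190 features of the set did so, for which a GSH-closed trio at that level is enough. At least 1 feature lacked such a trio, with GSH-closed libraries at 0.36, 30.7 and 74.7 TPM. It was tested because fly-closed libraries at 0.54 and 8.21 TPM also reached the level.

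The set took up a small share of all TPM in resting traps and a larger one after GSH. Whether the values are corrected for length is unknown, so these shares need not be shares of RNA. Its features together held 0.221, 0.224 and 0.239% of all TPM over the GSH mock libraries and 2.68, 2.65 and 2.65% in the GSH-closed libraries. In the fly mock they held 0.175, 0.175 and 0.166%, and in the fly-closed libraries 0.474, 0.530 and 0.533%. In both experiments the closed libraries lay above all mock libraries, and the GSH-closed libraries lay above the fly-closed ones. As group means the shares were 0.228% ± 0.00972 and 2.66% ± 0.0171 (SD, n = 3) in the GSH experiment and 0.172% ± 0.00484 and 0.513% ± 0.0333 (SD, n = 3) in the fly experiment. In bulk leaf samples a change in the make-up of cells and a change in RNA per cell cannot be told apart.

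**Figure D1:**
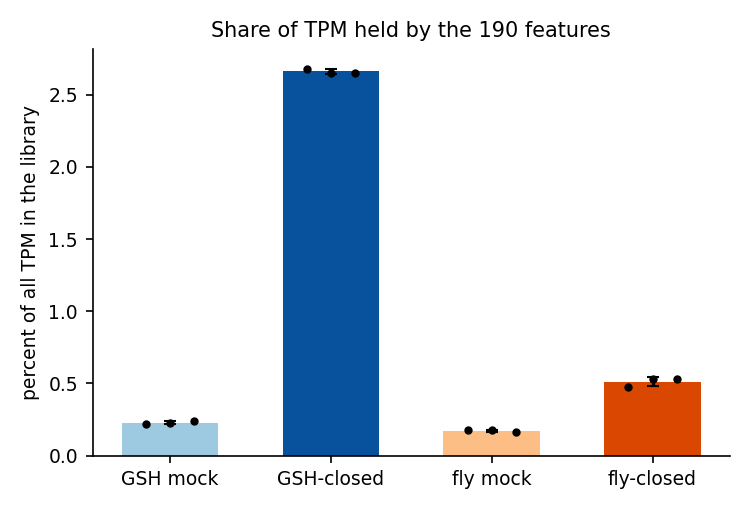
Share of all TPM (percent, vertical axis) held by the 190 features in the 4 groups; bars are group means, error bars SD of 3 libraries, points single libraries. The GSH-closed bar is at 2.66% and the fly-closed bar at 0.513%, above both mocks.

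The typical feature of the set moved from the middle of the abundance ranking to near its top after GSH, and part of that way after flies. Ranked among the 45503 tested features of a library, the median feature of the set stood at percentile 52.3 ± 0.82 in the GSH mock and 93.8 ± 0.203 in GSH-closed traps (SD, n = 3). In the fly experiment it stood at 47.9 ± 0.122 and 68.7 ± 0.593 (SD, n = 3). Ranks do not depend on the scaling between libraries, but they compare features whose values may not be corrected for length. The median TPM over the set was 3.51, 2.99 and 3.39 in the GSH mock libraries and 53.0, 55.5 and 55.5 in the GSH-closed ones. It was 2.41, 2.21 and 2.23 in the fly mock and 7.73, 8.92 and 8.91 after flies. The lowest value in each closed trio came from replicate 1, and the trios of closed and mock libraries did not overlap.

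**Figure D2:**
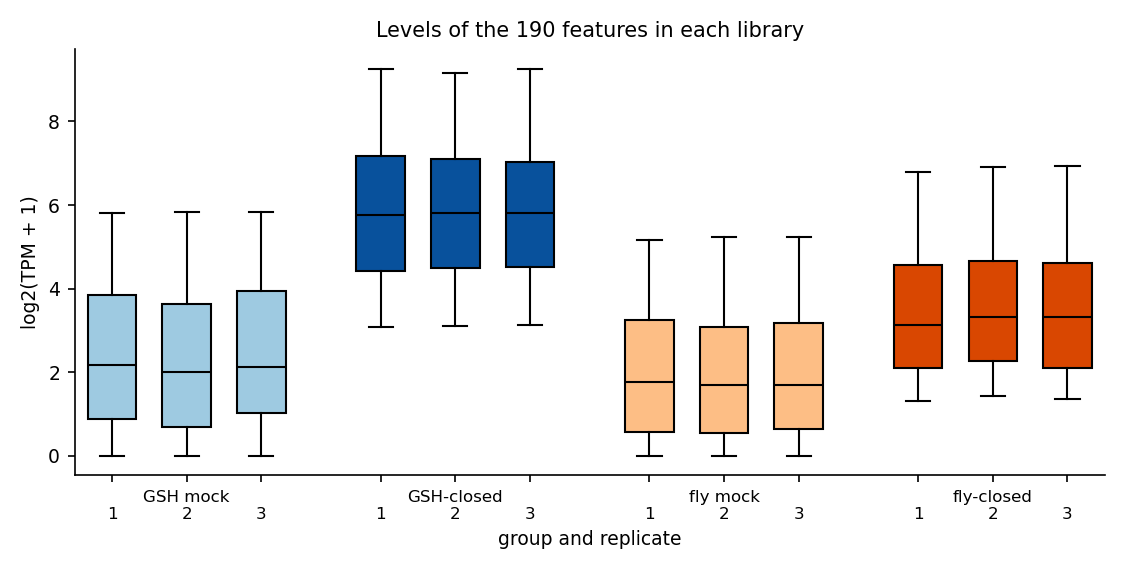
Levels of the 190 features, as log2(TPM + 1) on the vertical axis, in each of the 12 libraries by group and replicate; boxes span the quartiles with the median as a line, whiskers the 5th to 95th percentile. The boxes of the 3 GSH-closed libraries lie above all others, with medians of 53.0 to 55.5 TPM, and the fly-closed boxes lie between them and the mocks.

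After GSH the changes ran from 3.00 to 6.02 on the log2 scale with a median of 3.56, and 125 features lay between 3 and 4, 54 between 4 and 5, 10 between 5 and 6 and 1 above 6. After flies the median was 1.48, and 97 of the 190 were under 1.5. The change after GSH exceeded that after flies by 1.157 to 4.46, with a median of 2.16. Over the 190 features both changes had a Spearman's rho of 0.13 (across features of the same libraries and within a window that the choice sets). In TPM, the gain after flies was a median of 15.5% of the gain after GSH (quartiles 8.58 and 24.5%). It was under 10% for 59 features, under 20% for 124 and under 50% for 188. The highest share was 69.2%.

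**Figure D3:**
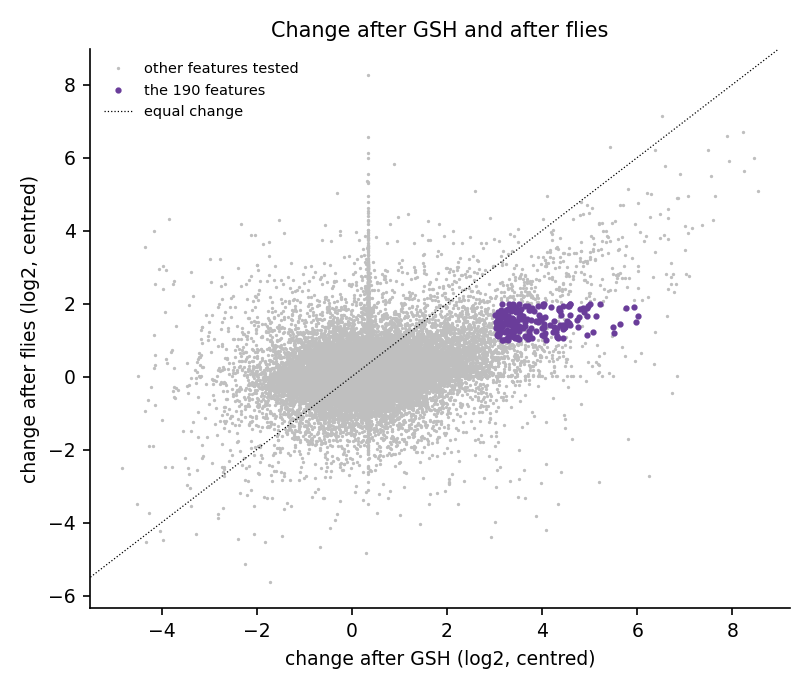
Change after GSH (horizontal) and after flies (vertical), both log2 with a pseudocount of 1 and centred, for the 45503 features tested; purple points are the 190 features and the dotted line marks equal change. The purple points fill the window between 1 and 2 after flies and reach from 3.00 to 6.02 after GSH; the grey vertical stripe is made of features listed at 0 in the GSH experiment.

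The limits cut through a continuous field. The feature just inside the GSH limit had a change of 3.0006 and the one just outside 2.9996. At the lower fly limit these were 1.001 and 0.998, and at the upper limit 1.9995 and 2.007. The GSH limit alone kept out 369 features, the lower fly limit 114, the upper fly limit 299 and overlap of the fly libraries 31. The limit on the mocks alone kept out none, and the highest resting mean in the set was 114 TPM.

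Resting levels in the set ranged widely. The mean of the 6 mock libraries was under 1 TPM for 53 features, 1 to 10 TPM for 90, 10 to 100 TPM for 46 and above 100 TPM for 1. In GSH-closed traps 174 features reached a mean of 10 TPM and 63 reached 100 TPM. After flies these numbers were 87 and 13. Of the 190 features 151 were above 0 in all 12 libraries. Another 3 were listed at 0 in all 6 mock libraries.

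Among these 151 features the plain ratio of mean TPM, closed over mock, had a median of 12.2 after GSH (6.74 to 202) and 3.48 after flies (2.06 to 39.1). The ratio depended on the resting level. For the 22 of them resting under 1 TPM the median ratios were 32.9 after GSH and 6.42 after flies. For the 82 at 1 to 10 TPM they were 12.4 and 3.55, and for the 46 at 10 to 100 TPM 9.08 and 2.72. A pseudocount of 1 lowers the change of features that rest under 1 TPM, so the same limits admit larger plain ratios there. After flies, 48 of the 151 had a plain ratio of 4 or more. With a pseudocount of 0.1 in place of 1, 81 of the 190 had a change after flies of 2 or more, yet 189 still changed more after GSH than after flies.

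The most abundant feature of the set in GSH-closed traps was TRINITY_DN8874_c3_g1. Its TPM was 27.7, 83.9 and 43.1 across the GSH mock libraries and 1523, 1308 and 1181 across the GSH-closed ones. Across the fly mock libraries its TPM was 115, 134 and 44.5, and across the fly-closed ones 326, 406 and 431. The closed libraries lay above their mocks in both experiments, and fly mock replicate 3 was the lowest of its trio. The means rose from 51.6 ± 29.0 to 1338 ± 173 TPM after GSH and from 97.9 ± 47.2 to 388 ± 54.7 TPM after flies (SD, n = 3). The limma change on the log2(TPM + 1) scale was 5.23 ± 0.45 (SE) with GSH and 2.12 ± 0.45 (SE) with flies. The change with flies ranged from 1.65, without fly mock replicate 3, to 2.43 over the alternatives, and with GSH from 4.81 to 5.71. No test is given for these contrasts, since they chose the feature.

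Of the features that are above 0 throughout and share their read cluster with no other tested feature, TRINITY_DN5345_c1_g1 had the largest change after GSH. A read cluster is the group of assembled features whose IDs differ only in the last gene number. This feature had a TPM of 1.71, 0.55 and 2.10 across the GSH mock libraries and 108, 121 and 132 across the GSH-closed ones. Across the fly mock libraries its TPM was 1.39, 2.28 and 2.33, and across the fly-closed ones 7.35, 7.95 and 6.89. Both closed trios were clear of their mocks, and the resting levels of the experiments overlapped. On average it rose 82.8-fold after GSH and 3.70-fold after flies in plain TPM. The limma changes, again without a test, were 6.04 ± 0.22 (SE) and 1.496 ± 0.22 (SE) on the log2(TPM + 1) scale. Over the alternatives they ranged from 5.68 to 6.87 with GSH and from 1.32 to 1.88 with flies.

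**Figure D4:**
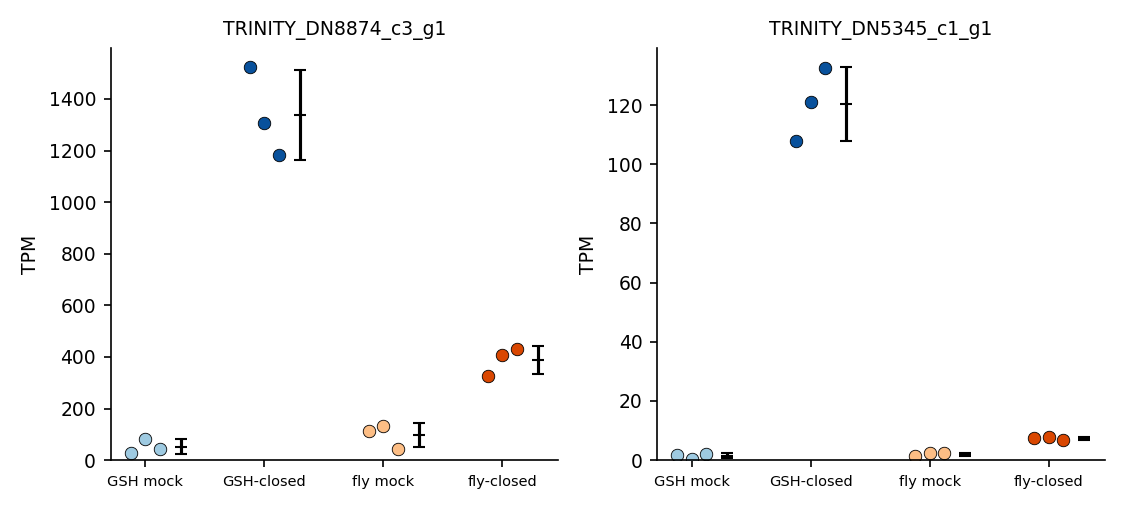
TPM (vertical axis, from 0) of both named features in the 4 groups; points are libraries, bars beside them mean and SD of 3 libraries. TRINITY_DN8874_c3_g1 reached 1181 to 1523 TPM after GSH against 326 to 431 TPM after flies; TRINITY_DN5345_c1_g1 reached 108 to 132 TPM against 6.89 to 7.95 TPM.

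Other abundant features had tighter trios. The second in rank by level after GSH rested at 86.8, 92.4 and 90.6 TPM in the GSH mock libraries and reached 1198, 1154 and 1166 TPM with it. In the fly experiment it rested at 46.2, 48.9 and 47.3 TPM and reached 174, 191 and 195 TPM. The third rested at 55.4, 62.0 and 61.0 TPM and reached 1044, 1038 and 1001 TPM with GSH. In the fly experiment it rested at 51.5, 53.1 and 59.9 TPM and reached 117, 161 and 160 TPM. Both had closed libraries far clear of their mocks, and the second rested higher in the GSH experiment than in the fly experiment. The gain after GSH was concentrated: 10 features made up 33.6% of the summed gain in mean TPM of the set, and 19 made up 50%. The largest change of all, 6.02 after GSH, belonged to a feature that rested at 1.61, 3.84 and 1.60 TPM in the GSH experiment and reached 181, 160 and 171 TPM. In the fly experiment it rested at 1.09, 0.38 and 0.68 TPM and reached 4.56, 3.97 and 4.35 TPM. The smallest gap between both changes, 1.157, belonged to a feature that rested at 21.3, 21.4 and 21.9 TPM and reached 154, 159 and 159 TPM with GSH. With flies it reached 61.4, 70.6 and 72.9 TPM from 16.7, 16.9 and 16.2 TPM.

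Replicates varied least after GSH, where levels were highest. The coefficient of variation over 3 libraries had a median of 7.32% in GSH-closed traps, 11.2% in fly-closed traps, 21.7% among GSH mock and 24.0% among fly mock libraries. It was under 10% for 120 features after GSH and for 85 after flies. The highest and lowest library of a trio lay within 2-fold for 180 features after GSH and 170 after flies. Fly-closed replicate 1 was the highest of its trio for 32 features, against 71 and 87 for replicates 2 and 3. Its median deviation from the group mean was -0.08 on the log2(TPM + 1) scale over the set and -0.07 over all tested features. The set's share in this library was 0.474%, still above all mock libraries.

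Tests over all 45503 features were made with limma on log2(TPM + 1) values, calling features at a Benjamini-Hochberg adjusted p below 0.05. After GSH 189 of the 190 features were called higher, where 14.7% of all tested features were. After flies 173 were called higher, against 4.77% of all tested features. The GSH effect was called larger than the fly effect for 181, against 9.22% of all tested features. These contrasts chose the set from the same libraries, so the limits largely fix the counts and nothing is read from them. Every one of the 3 calls was made for 172 features. The median limma change was 3.63 after GSH and 1.46 after flies, against -0.01 and 0.00 over all tested features.

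The 17 features not called after flies varied more, with a median coefficient of variation of 43.6% among fly-closed libraries against 10.4% for the others. They were also lower, at a median of 5.23 TPM after flies against 8.88 TPM. The 1 feature not called after GSH rested at 0.13, 0.31 and 0.25 TPM and reached 0.36, 30.7 and 74.7 TPM with GSH. Its high values came from GSH-closed replicates 2 and 3, and after flies from replicate 3 alone, at 0.41, 0.54 and 8.21 TPM.

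Levels in closed traps followed the same order. The mean was higher in GSH-closed than in fly-closed traps for all 190 features, with a median ratio of 5.28 (quartiles 3.26 and 9.16). For 185 the lowest GSH-closed library lay above the highest fly-closed one, which holds for 14.4% of all tested features; the choice of the set largely fixes this. For the other 5 the closed trios overlapped. Across the features, levels in both kinds of closed trap had a Spearman's rho of 0.81, as a description over features of the same libraries.

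The choice was repeated without each library in turn, and the library left out was then read. Between 186 and 208 features were chosen in this way, of which 174 to 186 were among the 190, and 127 of the 190 were chosen in all 12 rounds. When a GSH-closed library was left out, it lay above all 3 mock libraries of its experiment for 100% of the features chosen without it. For a fly-closed library left out this held for 93.8 to 97.9%. A GSH mock library left out lay below the closed ones for 99.0 to 100% and a fly mock library for 96.5 to 100%. Over all tested features, which were not chosen for a change, a library lay on that side for 16.7 to 31.8%. The library left out was read against libraries that the choice had used. The choice therefore favours high figures for the set, and the comparison is a description. The lowest figure for the set came from fly-closed replicate 1. Libraries of a group may share plants and processing, so this describes agreement between these libraries.

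Resting traps of the experiments were not level in the set, a contrast that the choice did not use although it used the same libraries. For 142 features the GSH mock had the higher mean, and for 45 the fly mock had. This split was not counted over all tested features. Among those above 0 throughout, the GSH mock was also higher at the median, with a ratio to the fly mock of 1.12. The lowest GSH mock library lay above the highest fly mock library for 74 features (38.9%), against 17.8% of all tested features. The reverse held for 10 features (5.26%), against 7.46% of all tested. Neighbouring features of the GSH response, described at the end, also had the GSH mock clear above the fly mock more often than all tested features, in 28.1 and 27.7%, and whether the set differs from them was not tested. In the limma fit the median SE of the contrast between the mocks was 0.163 over the set and 0.244 over all tested features. A difference of the same size is therefore called more readily in the set. By limma the GSH mock was called higher for 44 of the 190 and the fly mock for 10. That is 23.2% and 5.26%, against 5.65% and 3.78% of all tested features. Left unscaled, these counts were 53 and 3, so that the GSH mock was the higher one in 94.6% of the calls rather than 81.5%. All tested features moved the same way: unscaled, 9.02% were called higher for the GSH mock and 2.54% for the fly mock, and the share of calls with the GSH mock higher went from 59.9 to 78.0%. Fitted on the mock libraries alone, the counts for the set were 25 and 2, against 3.09 and 2.22% of all tested features. Among features above 0 throughout, the ratio of the GSH mock to the fly mock had a median of 1.30 in the set. Over all tested features it was 1.12. The ratio was 2 or more for 33 features of the set, and for 3 the fly mock was at least 2-fold higher. These counts were not made over all tested features. The experiment and any batch of plants or libraries cannot be told apart here.

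**Figure D5:**
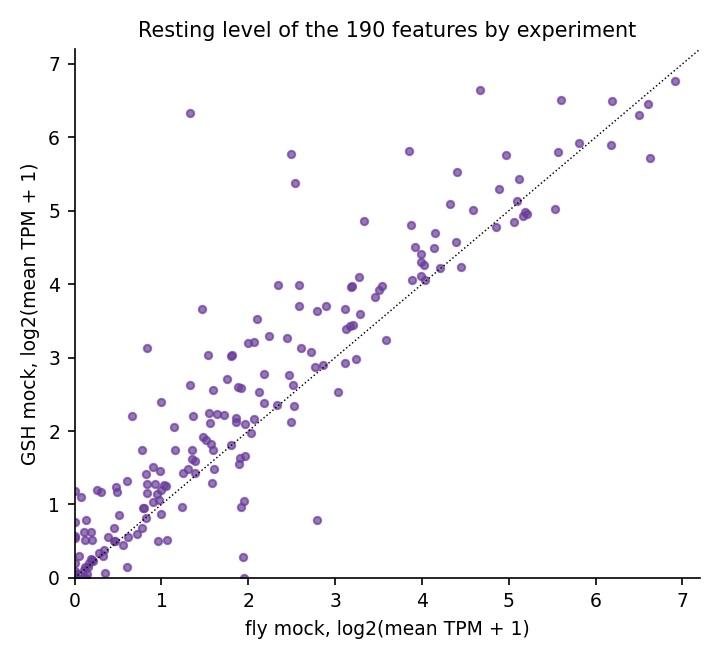
Resting level of the 190 features in the fly mock (horizontal) and the GSH mock (vertical), each as log2(mean TPM + 1) of 3 libraries; the dotted line marks equal levels. More points lie above the line (142 features) than below it (45), and a few lie far above it. Among all tested features above 0 throughout, the median ratio of the GSH mock to the fly mock was 1.12.

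A few features rested higher in the GSH experiment than they reached after flies. For 8 features (4.21%) every GSH mock library lay above every fly-closed library, which is a smaller share than the 18.1% of all tested features. The limits ask for raised levels after flies in the set, and how far they move this share was not tested. Their values are given as a description. The feature ranked 7 rested at 42.4, 38.5 and 40.4 TPM and reached 798, 804 and 742 TPM with GSH. In the fly experiment it went from 5.76, 3.88 and 4.81 TPM to 12.3, 14.9 and 15.2 TPM. The widest gap belonged to the feature ranked 12, which rested at 81.5, 82.6 and 75.5 TPM and reached 587, 572 and 571 TPM with GSH. In the fly experiment it rested at 2.06, 1.52 and 0.98 TPM and reached 3.67, 5.11 and 3.24 TPM. Its ratio between the mocks was 52.5. Against its own mock it rose by 3.18 after GSH and 1.01 after flies on the centred log2 scale. For these 8 the level after flies stayed under the resting level of the other experiment, although each closed trio was above its own mock.

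The 190 features fell into 182 read clusters: 175 held 1 feature of the set, 6 held 2 and 1 held 3. Features of the same cluster may be copies, variants or pieces of one gene and may share reads. The 3 features of one cluster were at 271, 268 and 254 TPM, at 152, 143 and 131 TPM, and at 141, 122 and 118 TPM in the GSH-closed libraries. After flies they were at 35.6, 38.2 and 31.5 TPM, at 12.3, 19.4 and 13.0 TPM, and at 10.4, 12.6 and 12.5 TPM. All 3 kept clear of their mocks, of which the highest library was at 30.6, 9.92 and 13.6 TPM in the GSH experiment and at 15.8, 6.10 and 5.36 TPM in the fly experiment. No other tested feature shared the cluster of 127 of the 190 features.

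Sister features, which share a read cluster with a feature of the set but did not meet its limits, mostly rose after GSH as well. Of 64 tested sisters in 49 clusters, limma called 43 higher after GSH and 5 lower, that is 67.2% and 7.81%, against 14.7% and 11.1% of all tested features. After flies 22 (34.4%) were called higher, against 4.77%. The GSH effect was called larger for 30 (46.9%) and smaller for 3 (4.69%), against 9.22% and 5.89% of all tested features. The sisters' median limma change was 2.00 after GSH and 0.38 after flies. The median SE of these changes was 0.158 over the sisters and 0.244 over all tested features. A change of the same size is therefore called more readily among sisters. By cluster, 36 of the 49 held a sister called higher after GSH and 19 held a sister called higher after flies. Of the 43 sisters called higher after GSH, 22 were also called after flies and 21 were not. Such a missing call does not show that flies left those 21 as they were. Reads shared between sisters and the set may contribute to this, and their part was not tested.

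When all features of a read cluster were summed before the limits were applied, an alternative added after seeing the data, 148 of the 182 clusters met them. The change after GSH was larger than that after flies in 181 of the 182. The median changes of the cluster sums were 3.54 after GSH and 1.43 after flies. In 81 of the cluster sums (44.5%) the lowest GSH mock library lay above the highest fly mock library, and in 10 (5.49%) the reverse held. Over all 40849 cluster sums that reached the minimum level, these shares were 17.9% and 7.34%.

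The set was placed beside its neighbours in the GSH response. The first were 299 features that met every other limit of the set and had a fly change of at least 2. The second were 264 features with a fly change between -1 and 1 that met the GSH limit, the limit on the mocks and the demand for no overlap after GSH, but were allowed to overlap after flies, so the neighbours were chosen by unlike rules. Of the set 79.5% were above 0 in all 12 libraries, against 63.2% and 57.6% of the neighbours. The median feature rested at 3.42 TPM in the GSH mock, against 1.94 and 1.70 TPM. After GSH the median feature was at 54.2 TPM, against 77.1 and 27.8 TPM. The median ratio of the GSH mock to the fly mock was close in all of them, at 1.30, 1.34 and 1.31, and 1.12 over all tested features. The limits shape these figures, and the differences between the sets were not tested.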

How the data were processed

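The deposited table gives 1 column per library and 397048 features with Trinity-style IDs. The submitters' processing notes name DESeq2 (1.16.1), RSEM, Trimmomatic and cutadapt but not what each did; for the aligner, the build and the read depth, nothing is stated in the sources used here. Although named as counts, the deposited values are a rescaled signal: below 60, 100% of values above 0 were multiples of the library sum over 1e+08 within 0.0051, and at most 2.25% were whole within 0.005. No count test was therefore used, no read depth can be recovered, and whether the values are corrected for length is unknown; they are called TPM after division by the library sum and multiplication by 1e+06.

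Features were tested when 3 or more libraries reached 0.526 TPM, which equals 10 deposited units in a library of median sum. Libraries were scaled by an unweighted trimmed mean of log ratios (30% and 5% trimmed at each end). Values of log2(TPM + 1) were fitted with limma 3.58.1 in R 4.3.3, in 1 model of 4 groups with 8 residual degrees of freedom and trend and robust variances. Adjusted p-values are Benjamini-Hochberg over all features tested. The calculation was run on simulated data with known changes, for the GSH and fly comparisons only. Changes were added only to features above a minimum mean level. Features at low levels, the contrast of the mocks and the difference of both effects were not covered.

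The features, the limits and the rule for naming 2 of them (highest level after GSH; largest GSH change among features above 0 throughout and alone in their read cluster) were chosen with earlier results of these data known. Other features singled out were picked after their values were seen. Same-numbered libraries did not deviate together, so the replicate number was used as a block only as an alternative. Other alternatives covered pseudocount, scaling, filter, groups in the fit, each limit of the choice and each library left out.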

Additional observations from a re-analysis of the deposited data

Results flagged for a closer look

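Sister features share a read cluster with a feature of the set and did not meet its limits. They are listed because some of their effects differed between the GSH and fly experiments by the test of the difference itself. Stimulus and experiment cannot be told apart in this test. The GSH effect was larger than the fly effect for 30 of 64 sisters (46.9%), against 9.22% of all tested features, by limma with Benjamini-Hochberg adjustment over the features tested. The median SE of this difference was 0.224 over the sisters and 0.346 over all tested features, so sisters are called more readily. Reads shared with the set may contribute, and their part was not tested. For the 190 features themselves the limits fix the direction of this difference, so they are not listed. Groups of 3 libraries were too small for a check of single outlying libraries.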

How the results depend on the processing

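Membership depended on the pseudocount: 308 features met the limits with a pseudocount of 0.1 (109 of them among the 190) and 114 with a pseudocount of 5 (37 of them among the 190). Without the median subtracted 134 did, and with a library left out 186 to 208. Counts of calls over the set kept within 1.5 times under all alternatives for GSH (188 to 190), for flies (149 to 173) and for the difference (157 to 181). The contrast between the mocks was less steady: 54 features differed, 27 when the fit held the mock libraries alone, of which 25 were higher in the GSH mock. The 10 higher in the fly mock became 2 with no filter, 3 with no scaling, 2 with the mock libraries alone and 5 to 11 with a library left out. The causes were not tested. With the replicate number as a block the calls were 190 after GSH, 169 after flies, 180 for the difference and 46 between the mocks, of which the GSH mock was higher for 40 and the fly mock for 6. Same-numbered libraries had deviations correlated at -0.03 to 0.02 over the features tested. Other pairings, such as by the numbers in the sample codes, were not checked. Direction was checked only for the 4 contrasts of the 2 named features, and none of these reversed. For GSH, flies and their difference the limits largely fix the direction. The unknown read depth limits features under 1 TPM most.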

Other observations

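The feature ranked 12 by level after GSH, with the widest gap between the mocks, shares its read cluster with a similar sister. Both were higher in every library of the GSH experiment than in any library of the fly experiment. This sister rested at 71.9, 42.3 and 114 TPM in the GSH experiment and reached 410, 336 and 394 TPM. All 3 fly mock libraries list it at 0, and the fly-closed ones list it at 0.55, 22.9 and 0 TPM. The remaining tested feature of the cluster stayed at or under 2.10 TPM in all 12 libraries.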
